A study of Mus musculus with 6 samples.

Results

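Esophageal organoids given 2 ligands of the transforming growth factor family, TGFb1 and BMP4, were compared here with organoids given a TGFb receptor inhibitor, across all expressed genes and with 2 RNA-seq libraries of each. A gene entered the comparison when its count per library, scaled by the authors to the library's total (CPM), reached 1 in at least 2 of these 4 libraries, which kept 17761 of the 52636 genes in the deposited table. The organoids grew from the esophagus of Krt5CreER:RosaSmoM2 mice, in which tamoxifen switches on SmoM2, an active form of the Hedgehog receptor Smoothened, in cells that express keratin 5. Every library of the study carries this allele, so none shows normal epithelium. Per the labels, the esophagus was taken 5 days after tamoxifen and the organoids were cultured for 13 days in matrigel with keratinocyte serum-free medium before the 72-hour treatment, with agents renewed every 24 hours. The ligand arm (TGFb1+BMP4) received 1 ng/ml of TGFb1 plus 20 ng/ml of BMP4. The inhibitor arm received A8301 at 500 nM, which blocks the type I receptors for TGFb, activin and Nodal but not those for BMP (TGFb inhibitor). The third group of the study, ligands with ibuprofen, entered the statistical fit only. The labels do not say whether the inhibitor was withheld from the ligand cultures, no group lacked both agents, and the effects of adding ligand and of blocking the receptor cannot be told apart. Separate cultures or animals are not stated for the 2 libraries of an arm, so the p-values measure only the spread between these libraries.

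TGFb and BMP ligands are secreted dimers that bring together type II and type I receptor kinases, which phosphorylate SMAD proteins. TGFb and activin act mainly through SMAD2 and SMAD3, and BMPs through SMAD1, SMAD5 and SMAD9, each in complex with SMAD4. In stratified epithelium these signals are known for slowing proliferation, for raising matrix and adhesion genes and for changing how keratinocytes mature, and several of their targets are inhibitors of the pathway itself.

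The 4 libraries held 6904541 to 7730582 reads, recovered from the size of 1 read in each library's scaled values, and the log2 profiles of replicates correlated at 0.985 with TGFb1+BMP4 and 0.989 with the inhibitor across genes, which are not independent replicates. All 12 defining markers of esophageal epithelium were expressed in every library. Smo, the gene whose active form the mice carry, had 132 and 161 CPM with TGFb1+BMP4, against 162 and 187 CPM with the inhibitor (log2 fold change −0.23 ± 0.12, adjusted p = 0.152), a difference that did not pass the test; the counts do not separate the transgene from the endogenous gene. Each log2 fold change is that of TGFb1+BMP4 over the inhibitor on the log2(CPM + 1) scale, followed by its standard error after ±, and each adjusted p is from limma with Benjamini-Hochberg adjustment.

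The comparison touched much of the transcriptome. At a limma adjusted p of 0.05, 7363 genes were called (41.5%), of which 3798 were higher (21.4% of all genes tested) and 3565 lower (20.1%) with TGFb1+BMP4. On the log2(CPM + 1) scale, 4296 of the called genes, or 58.3%, differed by less than 2-fold. The median absolute log2 fold change among called genes was 0.89. This share depended on the pseudocount: 3067 called genes reached 2-fold here, against 3580 of 7113 with a pseudocount of 0.1. Large differences leaned upward, with 530 genes higher and 252 lower by at least 4-fold, and 82 higher and 24 lower by at least 16-fold. At the extreme, 48 genes averaged at least 5 CPM with TGFb1+BMP4 and had at most 3 reads in the 2 inhibitor libraries together, against 11 genes with the reverse pattern. The libraries of the 2 groups did not overlap for 12920 genes (72.7%), and with 2 against 2 an exact permutation test of a single gene cannot fall below p = 0.333. The share called depended on abundance, at 24.5% of genes averaging under 2 CPM and 58.3% of genes averaging over 100 CPM. Leaving out inhibitor replicate 1 reduced the count to 4788, and leaving out inhibitor replicate 2 reduced it to 4849.

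**Figure D1:**
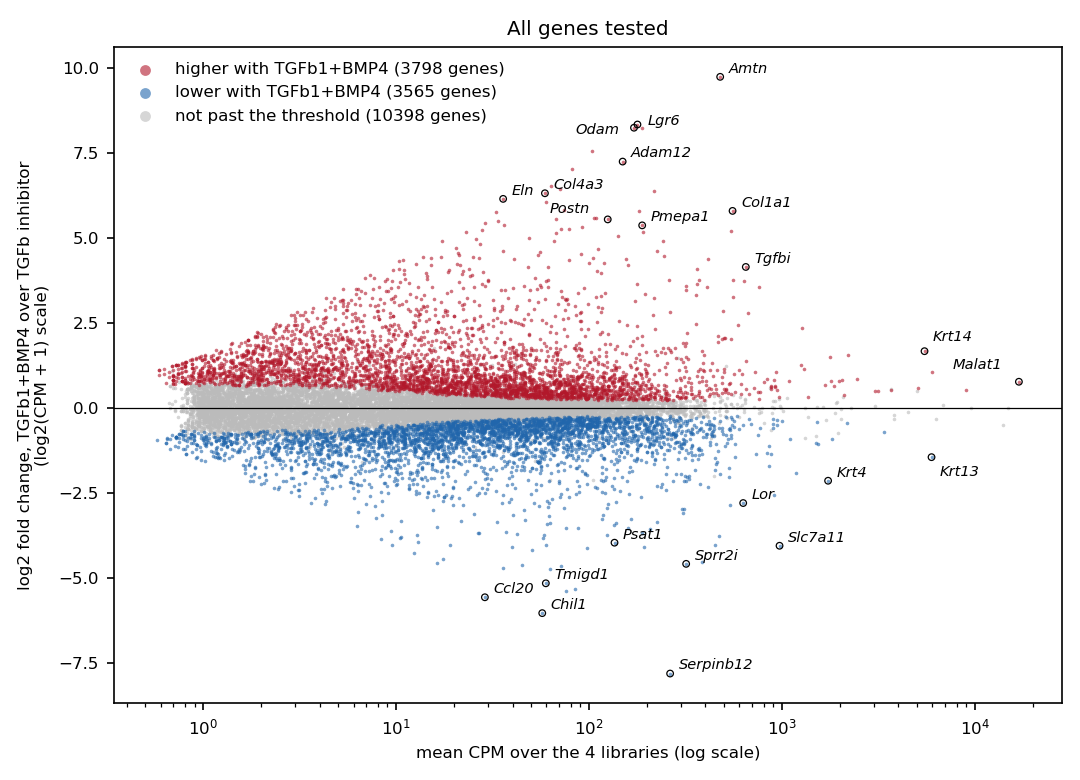
Log2 fold change of TGFb1+BMP4 over TGFb inhibitor, on the log2(CPM + 1) scale, against mean CPM (log axis) for the 17761 genes tested, with genes called higher in red, lower in blue and the rest in grey. The points above 0 reach 9.75 (Amtn), and those below 0 reach −7.81 (Serpinb12).

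Matrix genes took a larger share of the transcript pool with TGFb1+BMP4, and ribosomal protein genes a smaller one. Collagen genes took 0.631% and 0.821% of CPM with TGFb1+BMP4, against 0.179% and 0.174% with the inhibitor. Laminin genes took 0.376% and 0.338% with TGFb1+BMP4, against 0.0983% and 0.101% with the inhibitor. Cytosolic ribosomal protein genes took 1.36% in each TGFb1+BMP4 library, against 2.81% and 2.59% in the inhibitor libraries. The gain and the loss were concentrated to different degrees, since 130 genes held 50% of the CPM gained by called genes and 250 genes held 50% of the CPM lost.

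Among the genes with the largest gain in CPM were the nuclear long noncoding RNAs Malat1 and Neat1, which mark nuclear speckles and paraspeckles. Malat1 had 20995 and 21294 CPM with TGFb1+BMP4, against 13150.0 and 11925 CPM with the inhibitor (log2 fold change 0.78 ± 0.21, adjusted p = 0.0169). Neat1 had 7598 and 8456 CPM with TGFb1+BMP4, against 4239 and 3636 CPM with the inhibitor (log2 fold change 1.05 ± 0.16, adjusted p = 0.00138). Both stood higher in each TGFb1+BMP4 library, but the Malat1 call was lost when either 1 inhibitor library or TGFb1+BMP4 replicate 1 was left out: its log2 fold change was then 0.76 without TGFb1+BMP4 replicate 1 (adjusted p = 0.0658), 0.84 without inhibitor replicate 1 (adjusted p = 0.131), and 0.72 without inhibitor replicate 2 (adjusted p = 0.188). Gsto1, a glutathione transferase of the omega class, had 3999 and 2541 CPM with TGFb1+BMP4, against 1333 and 913 CPM with the inhibitor (log2 fold change 1.55 ± 0.24, adjusted p = 0.00139). Ecm1, an extracellular matrix glycoprotein of skin, had 3185 and 2031 CPM with TGFb1+BMP4, against 1118 and 733 CPM with the inhibitor (log2 fold change 1.51 ± 0.26, adjusted p = 0.0022). Emp1, an epithelial membrane protein, had 2444 and 1748 CPM with TGFb1+BMP4, against 545 and 305 CPM with the inhibitor (log2 fold change 2.36 ± 0.26, adjusted p = 0.000217), the widest fold difference of these 5 genes. The largest losses in CPM, besides keratins, included Slc7a11, the cystine importer, at 71.5 and 157 CPM with TGFb1+BMP4, against 1542 and 2101 CPM with the inhibitor (log2 fold change −4.05 ± 0.30, adjusted p = 3.11e-05). Slpi, a secreted leukocyte protease inhibitor, had 448 and 536 CPM with TGFb1+BMP4, against 1934 and 1814 CPM with the inhibitor (log2 fold change −1.91 ± 0.12, adjusted p = 1.14e-05). Dmkn, the secreted keratinocyte protein dermokine, had 946 and 1025 CPM with TGFb1+BMP4, against 2013 and 2132 CPM with the inhibitor (log2 fold change −1.05 ± 0.14, adjusted p = 0.000606). Genes of translation also stood there, with log2 fold changes of −0.71 ± 0.12 for the elongation factor Eef1a1, −0.91 ± 0.11 for Eef2 and −1.02 ± 0.10 for the poly(A)-binding protein Pabpc1, all called.

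The ligand genes of the family rose more often than they fell. Counts over a list of genes cover the members that reached the expression filter, which a gene expressed in 1 arm alone passes only because of that arm. Each such count stands beside 21.4% higher and 20.1% lower over all genes. Among 14 measured, 9 were higher and 2 lower with TGFb1+BMP4, with a median log2 fold change of 1.25 against 0.00 over all genes; the number lower was 1 when TGFb1+BMP4 replicate 1 or either inhibitor library was left out. Tgfb1, which encodes a form of the ligand that was added, had 149 and 162 CPM with TGFb1+BMP4, against 49.5 and 60.9 CPM with the inhibitor (log2 fold change 1.504 ± 0.11, adjusted p = 3.42e-05). Tgfb2 had 256 and 127 CPM with TGFb1+BMP4, against 8.64 and 8.29 CPM with the inhibitor (log2 fold change 4.28 ± 0.28, adjusted p = 1.83e-05), with a wide gap between groups and replicates that differed by more than they did for Tgfb1. Tgfb3 had 28.2 and 24.6 CPM with TGFb1+BMP4, against 3.30 and 1.70 CPM with the inhibitor (log2 fold change 3.02 ± 0.23, adjusted p = 3.85e-05). The activin subunit genes Inhba and Inhbb, whose products also signal through SMAD2 and SMAD3, had log2 fold changes of 3.15 ± 0.26 and 3.49 ± 0.24. Bmp1, a procollagen protease that carries the BMP name without belonging to the family, was counted in the list and rose by 3.06 on the log2 scale. Bmp2 had 22.6 and 29.98 CPM with TGFb1+BMP4, against 8.79 and 11.6 CPM with the inhibitor (log2 fold change 1.30 ± 0.25, adjusted p = 0.00353). Bmp3, which encodes an atypical member that opposes BMP signaling, was among the 2 that fell, at 0.3 and 0.45 CPM with TGFb1+BMP4, against 7.55 and 8.94 CPM with the inhibitor (log2 fold change −2.72 ± 0.23, adjusted p = 5.48e-05); Bmp4 did not reach the expression filter.

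Receptors moved in both directions. 6 of 12 rose and 3 fell, with a median log2 fold change of 0.46; the number that fell was 1 when TGFb1+BMP4 replicate 1 or either inhibitor library was left out, and the median was 0.29 without inhibitor replicate 1. Tgfbr1, the type I receptor that A8301 inhibits, had 108 and 85.5 CPM with TGFb1+BMP4, against 29.83 and 36.6 CPM with the inhibitor (log2 fold change 1.53 ± 0.15, adjusted p = 0.000119). Tgfbr2, the type II receptor for TGFb, had 91.5 and 117 CPM with TGFb1+BMP4, against 75.7 and 107 CPM with the inhibitor and did not pass the test (log2 fold change 0.22 ± 0.17, adjusted p = 0.34). Tgfbr3, the coreceptor betaglycan, had 2.75 and 5.55 CPM with TGFb1+BMP4, against 20.3 and 20.7 CPM with the inhibitor (log2 fold change −2.10 ± 0.30, adjusted p = 0.000887), the largest fall of the list. The BMP receptors Bmpr1a and Bmpr2 rose by 0.77 and 0.70 on the log2 scale, and the coreceptor Eng, known mainly from endothelium, had 11.6 and 19.1 CPM with TGFb1+BMP4, against 2.499 and 1.60 CPM with the inhibitor (log2 fold change 2.41 ± 0.27, adjusted p = 0.000242).

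Of the SMADs that carry the signal, Smad2, Smad3, Smad4 and Smad5 did not pass the test, Smad1 was lower and Smad9 was higher. Smad2 had 48.9 and 48.4 CPM with TGFb1+BMP4, against 42.7 and 43.5 CPM with the inhibitor. Smad3 had 63.3 and 59.5 CPM with TGFb1+BMP4, against 49.0 and 61.2 CPM with the inhibitor, and neither passed the test (adjusted p = 0.143 for Smad2 and 0.302 for Smad3). Smad4, the shared partner, had 129.5 and 110.0 CPM with TGFb1+BMP4, against 121 and 119 CPM with the inhibitor (adjusted p = 0.946). Of the transducers of BMP signals, Smad1 had 47.0 and 47.1 CPM with TGFb1+BMP4, against 63.5 and 66.0 CPM with the inhibitor (log2 fold change −0.43 ± 0.10, adjusted p = 0.011), a call lost at −0.39 without inhibitor replicate 2 (adjusted p = 0.0773). Smad9 had 1.60 and 3.35 CPM with TGFb1+BMP4, against 0.3 and 0.55 CPM with the inhibitor (log2 fold change 1.24 ± 0.29, adjusted p = 0.00913), a call lost at 0.89 without TGFb1+BMP4 replicate 2 (adjusted p = 0.0511) and 1.11 without inhibitor replicate 1 (adjusted p = 0.0649). Smad5 had 90.4 and 98.6 CPM with TGFb1+BMP4, against 99.9 and 94.1 CPM with the inhibitor (adjusted p = 0.889). Of the inhibitory SMADs, Smad7 had 114 and 108 CPM with TGFb1+BMP4, against 21.8 and 25.5 CPM with the inhibitor (log2 fold change 2.21 ± 0.11, adjusted p = 4.83e-06). Smad6 had 19.6 and 16.7 CPM with TGFb1+BMP4, against 3.45 and 2.60 CPM with the inhibitor (log2 fold change 2.27 ± 0.21, adjusted p = 9.51e-05). For Smad6 and Smad7 the groups did not overlap, as for 72.7% of all genes tested. Their list of inhibitory SMADs and extracellular antagonists had 12 of 14 members higher and 1 lower, at a median of 2.12. It included Fst, which encodes the activin trap follistatin, at 209.9 and 382 CPM with TGFb1+BMP4, against 14.8 and 11.1 CPM with the inhibitor (log2 fold change 4.38 ± 0.35, adjusted p = 4.37e-05). Grem1, an antagonist of BMP2 and BMP4, had 148 and 273 CPM with TGFb1+BMP4, against 16.8 and 23.4 CPM with the inhibitor (log2 fold change 3.29 ± 0.25, adjusted p = 3.42e-05). Bambi, a pseudoreceptor without a kinase, had 15.5 and 13.5 CPM with TGFb1+BMP4, against 1.25 and 0.65 CPM with the inhibitor (log2 fold change 3.01 ± 0.24, adjusted p = 4.38e-05). The 2 TGFb1+BMP4 libraries differed in Fst and Grem1, with replicate 2 higher in both. Among the 16 transducers and co-regulators, 5 rose and 2 fell, the 2 falls being lost without inhibitor replicate 2. They included Skil, a repressor of SMAD complexes and itself a target, at 452 and 411 CPM with TGFb1+BMP4, against 116 and 139.8 CPM with the inhibitor (log2 fold change 1.77 ± 0.12, adjusted p = 1.82e-05). The ubiquitin ligase gene Smurf1 rose by 1.31 on the log2 scale. Of the 16 transducers and co-regulators 43.75% were called in either direction, near the 41.5% over all genes.

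**Figure D2:**
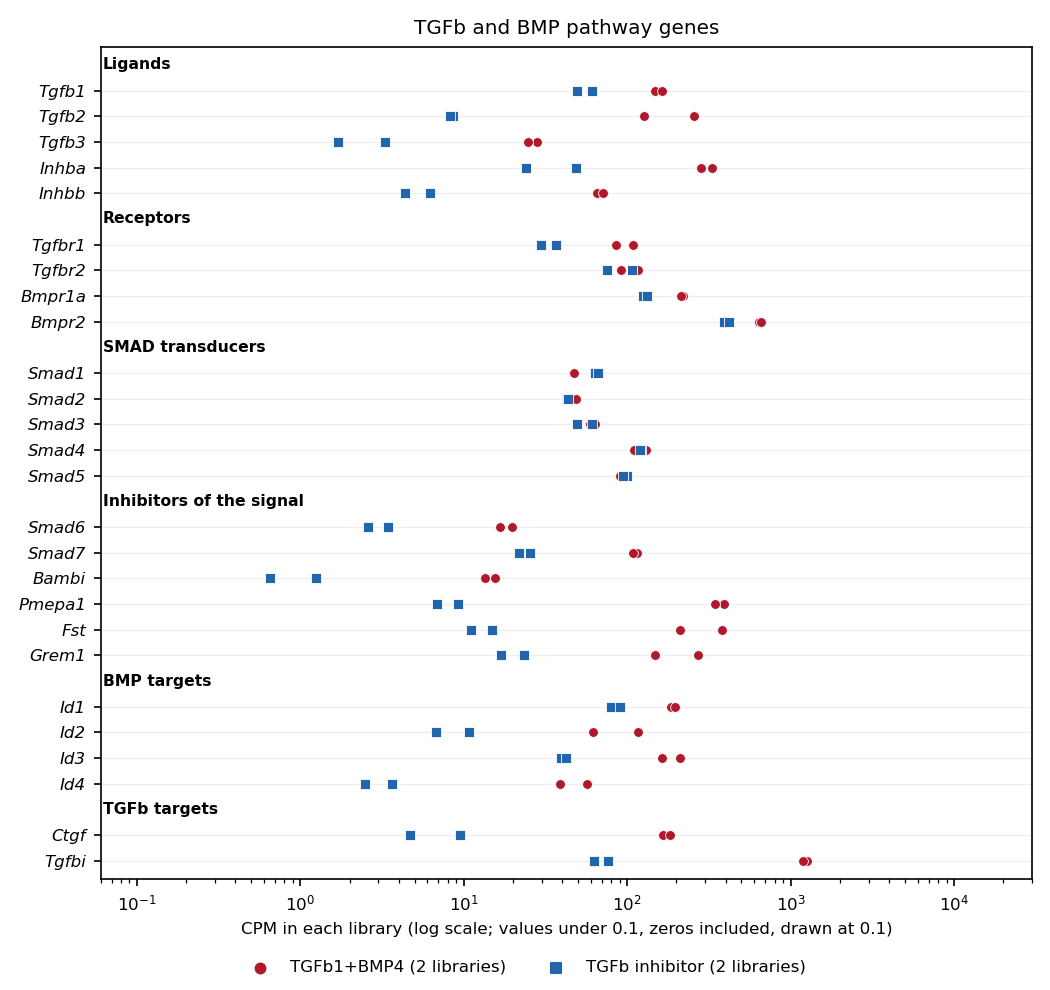
CPM in each library (log axis) for 26 ligand, receptor, SMAD, inhibitor and target genes, with a red circle for each TGFb1+BMP4 library and a blue square for each TGFb inhibitor library. The circles and squares of Tgfb2, Fst and Tgfbi lie far apart, and those of Smad4 and Tgfbr2 overlap.

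Genes that store and release latent TGFb formed another group, with 9 of 11 higher, 1 lower and a median log2 fold change of 1.83. Ltbp2, a matrix protein of the latent TGFb binding family, had 98.6 and 134 CPM with TGFb1+BMP4, against 7.30 and 4.30 CPM with the inhibitor (log2 fold change 4.14 ± 0.21, adjusted p = 5.39e-06). Its relative Ltbp4 went the other way, at 139 and 111 CPM with TGFb1+BMP4, against 234 and 207.4 CPM with the inhibitor (log2 fold change −0.80 ± 0.13, adjusted p = 0.00144), and Ltbp1 did not pass the test (log2 fold change 0.18, adjusted p = 0.263). Itgb6, the beta chain of the epithelial integrin that frees TGFb from its latent complex, had 424 and 317 CPM with TGFb1+BMP4, against 39.3 and 77.1 CPM with the inhibitor (log2 fold change 2.73 ± 0.28, adjusted p = 0.000144). Thbs1, which encodes thrombospondin 1, another activator of latent TGFb, had 530.0 and 436 CPM with TGFb1+BMP4, against 22.9 and 52.4 CPM with the inhibitor (log2 fold change 3.77 ± 0.33, adjusted p = 6.97e-05); its log2 fold change was 3.18 without inhibitor replicate 1 and 4.36 without inhibitor replicate 2. Lrrc32, which holds latent TGFb at the cell surface, had a log2 fold change of 2.87 ± 0.26, and the proprotein convertase gene Furin, whose product cleaves the TGFb precursor, one of 1.65 ± 0.13.

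Most known targets of both branches rose. Of 18 SMAD2/3 targets measured, 15 were higher and 1 lower at a median of 1.93, and of 13 SMAD1/5 targets, 9 were higher and 1 lower at a median of 1.67. Ctgf, a matricellular protein, had 166 and 184 CPM with TGFb1+BMP4, against 9.44 and 4.70 CPM with the inhibitor (log2 fold change 4.53 ± 0.23, adjusted p = 5.45e-06). Tgfbi, a secreted adhesion protein, had 1259 and 1192 CPM with TGFb1+BMP4, against 75.8 and 62.4 CPM with the inhibitor (log2 fold change 4.16 ± 0.12, adjusted p = 4.15e-07). In both the lower TGFb1+BMP4 library stood more than 10-fold above the higher inhibitor library. The cell cycle inhibitor gene Cdkn2b rose, at 77.8 and 56.2 CPM with TGFb1+BMP4, against 11.2 and 9.44 CPM with the inhibitor (log2 fold change 2.59 ± 0.19, adjusted p = 2.97e-05), whereas Cdkn1a, listed with it, did not pass the test (adjusted p = 0.151). On the BMP side, Id4, a dominant negative helix-loop-helix factor, had 38.8 and 56.5 CPM with TGFb1+BMP4, against 2.499 and 3.65 CPM with the inhibitor (log2 fold change 3.58 ± 0.35, adjusted p = 0.000111). The homeobox gene Dlx2 had 43.1 and 28.2 CPM with TGFb1+BMP4, against 7.396 and 5.60 CPM with the inhibitor (log2 fold change 2.29 ± 0.23, adjusted p = 0.000152). The single SMAD1/5 target that fell was another homeobox gene, Dlx5, at 3.90 and 7.10 CPM with TGFb1+BMP4, against 17.2 and 16.04 CPM with the inhibitor (log2 fold change −1.47 ± 0.26, adjusted p = 0.00251).

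Fibrillar collagens, the rod-like collagens that build the fibers of connective tissue, had 9 of 10 measured genes higher, none lower and a median log2 fold change of 3.72. Col1a1 had 885 and 1289 CPM with TGFb1+BMP4, against 18.5 and 18.2 CPM with the inhibitor (log2 fold change 5.81 ± 0.17, adjusted p = 4.62e-07). Col1a2, which encodes the partner chain of type I collagen, had 632 and 952 CPM with TGFb1+BMP4, against 32.98 and 40.0 CPM with the inhibitor (log2 fold change 4.40 ± 0.20, adjusted p = 3.61e-06). Col3a1 had 142 and 276 CPM with TGFb1+BMP4, against 8.79 and 14.1 CPM with the inhibitor (log2 fold change 4.05 ± 0.37, adjusted p = 8.34e-05). In each of these 3 genes TGFb1+BMP4 replicate 2 exceeded replicate 1, and both stood far above the inhibitor libraries. Col5a3, a minor chain of type V collagen, had 68.6 and 65.5 CPM with TGFb1+BMP4, against 0.45 and 0.55 CPM with the inhibitor (log2 fold change 5.50 ± 0.14, adjusted p = 4.15e-07). Col11a1, with 3 reads in the inhibitor libraries, was 61.02-fold higher by reads (95% counting interval 20.5 to 299). Col11a2 alone in the list was not called. These genes are also made by fibroblasts. All 14 measured genes on a list of fibroblast markers summed to 1991 and 3084 CPM with TGFb1+BMP4, against 186 and 264 CPM with the inhibitor. Col1a1, Col1a2 and Col3a1 are on this list too. They held most of its CPM with TGFb1+BMP4, so the sum largely repeats the collagen result. Of the 14, 12 were higher and 1 lower, and fewer were higher without TGFb1+BMP4 replicate 2 or without either inhibitor library. Dpt was at 0 reads in both inhibitor libraries. Pdgfra, a defining fibroblast receptor, had 29.4 and 52.3 CPM with TGFb1+BMP4, against 17.1 and 21.6 CPM with the inhibitor (log2 fold change 1.01 ± 0.23, adjusted p = 0.00831), a call lost at 0.84 without inhibitor replicate 1 (adjusted p = 0.0663). Dcn, the fibroblast proteoglycan decorin, had 145 and 244 CPM with TGFb1+BMP4, against 79.5 and 125 CPM with the inhibitor (log2 fold change 0.93 ± 0.25, adjusted p = 0.0185), a call lost at 0.58 without TGFb1+BMP4 replicate 2 (adjusted p = 0.0915) and 0.60 without inhibitor replicate 1 (adjusted p = 0.129). The part of these cells in the collagen result was not tested, and in bulk RNA fewer cells of a type and less RNA per cell cannot be told apart.

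Sequence upstream of 4 genes is shown because the SMAD3 and SMAD4 proteins are known to bind the letters CAGA, and CAGACA or its reverse complement TGTCTG is the form searched here. Col1a2, Col3a1 and Col5a1 are the fibrillar collagen genes with a match, and Amtn, which encodes the enamel protein amelotin, had the largest fold rise of the comparison. Each run holds the 250 bases before the RefSeq start site in GRCm38.p6, plus strand, 5′ to 3′, at chr6:4505368-4505617, chr1:45311288-45311537, chr2:27886175-27886424 and chr5:88375858-88376107, with the matches in capitals.
Col1a2: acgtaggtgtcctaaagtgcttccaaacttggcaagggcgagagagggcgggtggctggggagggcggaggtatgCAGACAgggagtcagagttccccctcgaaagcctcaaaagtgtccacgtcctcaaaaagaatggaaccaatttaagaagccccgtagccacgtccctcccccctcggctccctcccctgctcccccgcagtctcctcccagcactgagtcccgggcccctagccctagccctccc
Col3a1: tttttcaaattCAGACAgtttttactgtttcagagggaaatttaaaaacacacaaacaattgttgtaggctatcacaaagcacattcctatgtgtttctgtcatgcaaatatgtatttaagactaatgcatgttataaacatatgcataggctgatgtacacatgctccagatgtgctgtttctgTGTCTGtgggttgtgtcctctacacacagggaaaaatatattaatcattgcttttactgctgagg
Col5a1: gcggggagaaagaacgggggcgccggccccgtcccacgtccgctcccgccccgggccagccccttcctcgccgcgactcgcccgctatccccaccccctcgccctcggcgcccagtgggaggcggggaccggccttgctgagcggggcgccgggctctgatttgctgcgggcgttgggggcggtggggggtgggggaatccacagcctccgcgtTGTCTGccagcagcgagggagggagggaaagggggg
Amtn: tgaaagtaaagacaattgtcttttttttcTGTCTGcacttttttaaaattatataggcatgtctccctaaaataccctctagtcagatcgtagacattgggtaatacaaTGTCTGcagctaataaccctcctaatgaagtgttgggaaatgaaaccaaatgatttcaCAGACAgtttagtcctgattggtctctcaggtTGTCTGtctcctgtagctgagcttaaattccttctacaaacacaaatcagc

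The Col1a2 match starts 175 bases before the start site, the Col3a1 matches 239 and 65 bases before it and the Col5a1 match 36 bases before it. Amtn holds 4 matches, starting 221, 141, 83 and 51 bases before its start site, and its 2 TGFb1+BMP4 libraries held 13256 reads together, against 1 read in the inhibitor libraries, at 1149 and 758 CPM with TGFb1+BMP4, against 0 and 0.15 CPM with the inhibitor. Over windows of 300 bases, searched on both strands, 21% of all 32851 windows in the RefSeq table held the letters. A window was matched for 10938 of the genes tested, and the share was 22.3% of 2564 genes called higher, 17.5% of 2387 called lower and 18.5% of 5987 not called. Among fibrillar collagens with a window, 3 of 8 held a match. The longer palindrome GTCTAGAC, which contains no CAGACA, was in 0.213% of all windows and in none of those 8. A match describes letters in a window and shows no binding.

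Basement membrane genes rose as a group, with 19 of 23 higher and 1 lower at a median log2 fold change of 1.55. Lama3, a laminin chain that anchors stratified epithelium, had 1243 and 1066 CPM with TGFb1+BMP4, against 164 and 173 CPM with the inhibitor (log2 fold change 2.79 ± 0.12, adjusted p = 3.34e-06). Its partner chain Lamb3 had 875 and 731 CPM with TGFb1+BMP4, against 186 and 202 CPM with the inhibitor (log2 fold change 2.06 ± 0.14, adjusted p = 2e-05). For both genes no library of 1 group reached the other group, as for 72.7% of all genes tested. The chain that fell was Lama5, at 134 and 155 CPM with TGFb1+BMP4, against 254 and 232 CPM with the inhibitor (log2 fold change −0.72 ± 0.17, adjusted p = 0.00952), a call lost without some libraries, at −0.65 without TGFb1+BMP4 replicate 1 (adjusted p = 0.05003) and −0.67 without inhibitor replicate 1 (adjusted p = 0.0661). The type IV collagen chains differed in size of change: Col4a1 and Col4a2, the ubiquitous pair, rose by 2.41 and 2.84 on the log2 scale. Col4a3 and Col4a4, which assemble with Col4a5 in specialised membranes, rose by 6.32 and 5.15. Col4a4, for example, had 124 and 138 CPM with TGFb1+BMP4, against 2.90 and 2.60 CPM with the inhibitor. Col7a1, the anchoring fibril collagen beneath stratified epithelium, had 381 and 559.6 CPM with TGFb1+BMP4, against 21.1 and 19.1 CPM with the inhibitor (log2 fold change 4.47 ± 0.15, adjusted p = 1.06e-06). Col17a1, the hemidesmosomal collagen, had 2194 and 2329 CPM with TGFb1+BMP4, against 1363 and 1249 CPM with the inhibitor (log2 fold change 0.81 ± 0.11, adjusted p = 0.000525).

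Integrin genes, which encode the receptors for this matrix, were higher for 14 of 18 and lower for 2, with a median of 1.17, and lower for 1 without TGFb1+BMP4 replicate 1. The hemidesmosomal pair Itga6 and Itgb4 rose by 1.26 and 1.14 on the log2 scale; Itga6 had 1840.5 and 1664 CPM with TGFb1+BMP4, against 727 and 753 CPM with the inhibitor. The fibronectin receptor chain Itga5 had 163 and 210.3 CPM with TGFb1+BMP4, against 30.9 and 32.9 CPM with the inhibitor (log2 fold change 2.52 ± 0.11, adjusted p = 3.63e-06). Itgb3, a beta chain that pairs with alpha v, had 26.2 and 27.8 CPM with TGFb1+BMP4, against 0 and 0.65 CPM with the inhibitor (log2 fold change 4.44 ± 0.24, adjusted p = 6.29e-06). The collagen receptor chain Itga11, known from fibroblasts, had 17.1 and 22.2 CPM with TGFb1+BMP4, against 0.85 and 0.65 CPM with the inhibitor (log2 fold change 3.55 ± 0.22, adjusted p = 1.24e-05). The laminin receptor chain Itga3 moved against them, at 120.03 and 126 CPM with TGFb1+BMP4, against 503 and 572 CPM with the inhibitor (log2 fold change −2.09 ± 0.17, adjusted p = 5.06e-05). For Itga3, Itga6 and Itgb4 the groups did not overlap, as for 72.7% of all genes tested.

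Elastic fiber and matricellular genes were higher for 22 of 27 and lower for 2, with a median of 1.996. Eln, which encodes elastin, had 65.6 and 77.5 CPM with TGFb1+BMP4, against 0 and 0 CPM with the inhibitor. That was at least 359-fold higher, counted against a floor of 3 reads over the inhibitor libraries. Fbn1, the microfibril protein fibrillin 1, had 250.1 and 356 CPM with TGFb1+BMP4, against 14.6 and 16.04 CPM with the inhibitor (log2 fold change 4.22 ± 0.18, adjusted p = 3.31e-06). Sparc, a collagen-binding glycoprotein, had 364 and 499.9 CPM with TGFb1+BMP4, against 15.7 and 17.6 CPM with the inhibitor (log2 fold change 4.62 ± 0.19, adjusted p = 2.85e-06). Postn, which encodes periostin, had 167 and 324 CPM with TGFb1+BMP4, against 4.40 and 3.65 CPM with the inhibitor (log2 fold change 5.56 ± 0.32, adjusted p = 8.7e-06), again with replicate 2 the higher of the TGFb1+BMP4 libraries. Spp1, which encodes osteopontin, had 1159.8 and 1638 CPM with TGFb1+BMP4, against 111 and 125 CPM with the inhibitor (log2 fold change 3.56 ± 0.15, adjusted p = 3.02e-06). The 2 that fell were the fibulin genes Fbln1, at 10.3 and 13.3 CPM with TGFb1+BMP4, against 40.1 and 40.1 CPM with the inhibitor (log2 fold change −1.67 ± 0.17, adjusted p = 0.000145), and Efemp1, at 5.45 and 2.65 CPM with TGFb1+BMP4, against 15.3 and 12.8 CPM with the inhibitor (log2 fold change −1.61 ± 0.29, adjusted p = 0.00303); the fibulin gene Fbln2 rose by 3.37 on the log2 scale.

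Among 22 genes for collagen folding and cross-linking, 15 rose and 1 fell, at a median of 1.07. Lox, the oxidase that cross-links collagen and elastin, had 375 and 559.9 CPM with TGFb1+BMP4, against 12.2 and 16.6 CPM with the inhibitor (log2 fold change 4.93 ± 0.22, adjusted p = 3.63e-06). The collagen chaperone gene Serpinh1 had 172 and 203 CPM with TGFb1+BMP4, against 84.001 and 82.6 CPM with the inhibitor (log2 fold change 1.17 ± 0.09, adjusted p = 4.3e-05). P4ha3, a collagen prolyl hydroxylase subunit, had 11.9 and 17.4 CPM with TGFb1+BMP4, against 0 and 0 CPM with the inhibitor, thus at least 73.3-fold higher. Its relative P4ha1 did not pass the test (log2 fold change −0.23, adjusted p = 0.238). P3h2, a prolyl 3-hydroxylase, was the single gene that fell, at 18.9 and 20.1 CPM with TGFb1+BMP4, against 42.3 and 32.3 CPM with the inhibitor (log2 fold change −0.87 ± 0.15, adjusted p = 0.00214).

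Matrix proteases and their inhibitors both had more members higher than lower. 19 of 31 proteases were higher and 3 lower at a median of 0.94, and 8 of 9 inhibitors were higher and 1 lower at a median of 0.90; the number of inhibitors higher was 5 without inhibitor replicate 1. Mmp9, a gelatinase, had 62.2 and 48.7 CPM with TGFb1+BMP4, against 0.55 and 0.4 CPM with the inhibitor (log2 fold change 5.24 ± 0.24, adjusted p = 3.61e-06). Mmp14, a membrane-bound collagenase, had 235 and 202 CPM with TGFb1+BMP4, against 58.6 and 64.4 CPM with the inhibitor (log2 fold change 1.83 ± 0.11, adjusted p = 1.13e-05). Adam12, a metalloprotease of the disintegrin family, had 343 and 251 CPM with TGFb1+BMP4, against 1.25 and 0.65 CPM with the inhibitor (log2 fold change 7.26 ± 0.19, adjusted p = 4.15e-07). All 3 separated the groups without overlap, as did 72.7% of all genes tested. Adamts1, an aggrecan-cleaving protease, fell, at 20.2 and 28.1 CPM with TGFb1+BMP4, against 91.2 and 85.1 CPM with the inhibitor (log2 fold change −1.82 ± 0.15, adjusted p = 4.43e-05), as did Mmp28, an epithelial metalloprotease, by 0.84 on the log2 scale. Of the inhibitors, Timp1 had 112 and 167 CPM with TGFb1+BMP4, against 2.20 and 2.998 CPM with the inhibitor (log2 fold change 5.28 ± 0.19, adjusted p = 1.64e-06). Timp3, which binds to the matrix, had 186 and 240.5 CPM with TGFb1+BMP4, against 4.15 and 2.85 CPM with the inhibitor (log2 fold change 5.59 ± 0.30, adjusted p = 6.77e-06). Serpinf1, a secreted serpin, rose by 3.59 on the log2 scale.

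Genes of the contractile cytoskeleton differed by smaller factors at the median, with 14 of 22 higher, 1 lower and a median of 0.56. Tpm1, a tropomyosin, had 188 and 194 CPM with TGFb1+BMP4, against 81.2 and 85.8 CPM with the inhibitor (log2 fold change 1.202 ± 0.08, adjusted p = 2.17e-05). Actn4, an actin cross-linker, had 848 and 795 CPM with TGFb1+BMP4, against 419 and 417 CPM with the inhibitor (log2 fold change 0.99 ± 0.09, adjusted p = 8.33e-05). Vim, which encodes the mesenchymal intermediate filament vimentin, had 104.7 and 165 CPM with TGFb1+BMP4, against 16.6 and 24.8 CPM with the inhibitor (log2 fold change 2.66 ± 0.27, adjusted p = 0.000141). Acta2, the smooth muscle actin of myofibroblasts, had 13.8 and 13.9 CPM with TGFb1+BMP4, against 0.85 and 0.8 CPM with the inhibitor (log2 fold change 3.03 ± 0.27, adjusted p = 7.2e-05), and the smooth muscle genes Myh11, Actg2, Cnn1 and Lmod1 did not reach the filter. YAP and SRF targets moved both ways, with 13 of 21 higher and 3 lower: Amotl2, an angiomotin, rose by 1.26 on the log2 scale, while the immediate early genes Egr1 and Egr3 fell by 1.38 and 2.65. Their relative Egr2 rose, at 6.35 and 8.70 CPM with TGFb1+BMP4, against 1.55 and 0.949 CPM with the inhibitor (log2 fold change 1.93 ± 0.28, adjusted p = 0.00102).

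Transcription factors known from mesenchyme rose in 10 of 16 cases and fell in none, at a median of 1.16, although 1 fell without TGFb1+BMP4 replicate 2. Snai1, a repressor of epithelial genes, had 10.2 and 12.5 CPM with TGFb1+BMP4, against 1.10 and 0.949 CPM with the inhibitor (log2 fold change 2.61 ± 0.20, adjusted p = 3.36e-05). Zeb1, another such repressor, had 18.6 and 24.6 CPM with TGFb1+BMP4, against 3.85 and 5.35 CPM with the inhibitor (log2 fold change 2.03 ± 0.21, adjusted p = 0.000172). Snai2, a relative of Snai1 that basal keratinocytes also express, did not pass the test (log2 fold change −0.26, adjusted p = 0.144). Runx2, a factor known from bone, had 224 and 182 CPM with TGFb1+BMP4, against 29.03 and 26.4 CPM with the inhibitor (log2 fold change 2.84 ± 0.18, adjusted p = 1.51e-05). Runx1 rose by 1.82 on the log2 scale. Of 17 epithelial guardian genes, which hold the epithelial state, 2 were higher and 4 lower, and the share lower was near the 20.1% over all genes. The number higher was 1 without TGFb1+BMP4 replicate 1 or inhibitor replicate 1, and the number lower was 2 without inhibitor replicate 2. Esrp1, an epithelial splicing factor, had 344 and 319.9 CPM with TGFb1+BMP4, against 537 and 543 CPM with the inhibitor (log2 fold change −0.68 ± 0.11, adjusted p = 0.00158). The vesicle transport gene Rab25 had 58.3 and 49.1 CPM with TGFb1+BMP4, against 131 and 143 CPM with the inhibitor (log2 fold change −1.32 ± 0.12, adjusted p = 0.0001). Cdh1, which encodes E-cadherin, had 713 and 541 CPM with TGFb1+BMP4, against 635 and 635 CPM with the inhibitor and overlapped between groups (adjusted p = 0.955). Of 15 cadherin genes, 8 rose and none fell, with 1 lower when either TGFb1+BMP4 library was left out. They included Cdh6, a cadherin known from kidney, at 116 and 121 CPM with TGFb1+BMP4, against 0.55 and 1.05 CPM with the inhibitor (log2 fold change 6.07 ± 0.14, adjusted p = 4.15e-07), and Cdh11, a mesenchymal cadherin, at 33.2 and 50.3 CPM with TGFb1+BMP4, against 2.499 and 2.75 CPM with the inhibitor (log2 fold change 3.54 ± 0.21, adjusted p = 1.14e-05).

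**Figure D3:**
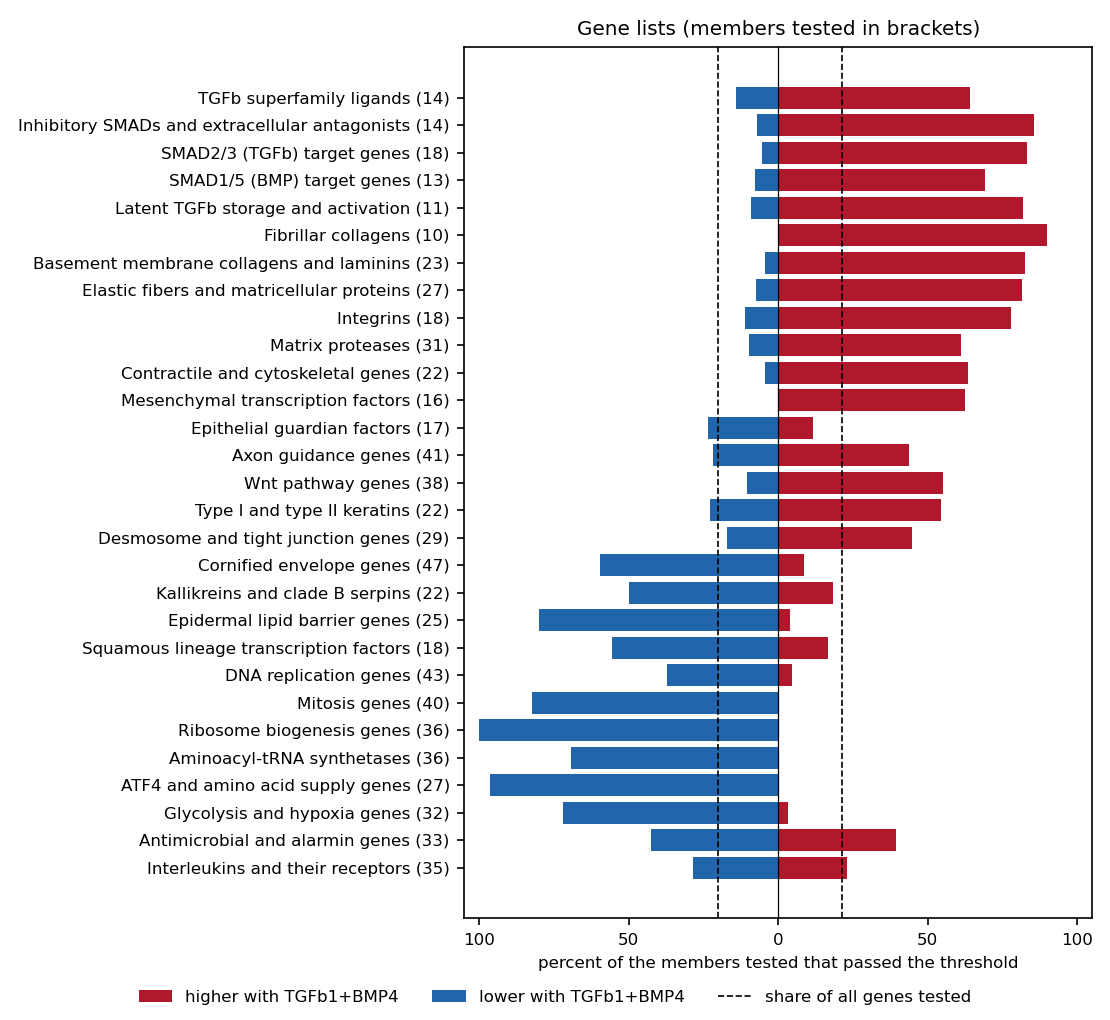
Percent of the measured members of 29 gene lists that were called higher (red, right of 0) or lower (blue, left of 0) with TGFb1+BMP4 than with the TGFb inhibitor, with dashed lines at the shares over all genes, 21.4% and 20.1%. The red bar of the fibrillar collagens and the blue bar of the ribosome biogenesis genes reach furthest.

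Guidance genes, whose products steer axons and other migrating cells, were higher for 18 of 41 and lower for 9, at a median of 0.27, or 0.09 without inhibitor replicate 1. Members of single families moved apart. The semaphorin gene Sema3d had 38.7 and 28.4 CPM with TGFb1+BMP4, against 0.55 and 0.55 CPM with the inhibitor (log2 fold change 4.46 ± 0.27, adjusted p = 1.14e-05). Sema6d rose by 3.22 on the log2 scale. Sema3e had 4.597 and 3.20 CPM with TGFb1+BMP4, against 19.04 and 13.5 CPM with the inhibitor (log2 fold change −1.79 ± 0.22, adjusted p = 0.000437). Sema4b had 62.9 and 59.5 CPM with TGFb1+BMP4, against 174 and 174 CPM with the inhibitor (log2 fold change −1.47 ± 0.09, adjusted p = 1.14e-05), both lower. Nrp1, a coreceptor of class 3 semaphorins and of VEGF, had 22.9 and 22.04 CPM with TGFb1+BMP4, against 2.20 and 2.85 CPM with the inhibitor (log2 fold change 2.75 ± 0.23, adjusted p = 5.81e-05), whereas Nrp2 did not pass the test (adjusted p = 0.373). The receptor gene Robo2 fell by 1.72 on the log2 scale while its relative Robo1 was not called (adjusted p = 0.113). The ephrin gene Efnb2 had 109.7 and 98.1 CPM with TGFb1+BMP4, against 35.2 and 30.9 CPM with the inhibitor (log2 fold change 1.64 ± 0.11, adjusted p = 2.37e-05).

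Wnt pathway genes rose in 21 of 38 cases and fell in 4, at a median of 0.70. Without TGFb1+BMP4 replicate 1 the median was 1.16, and without TGFb1+BMP4 replicate 2 the number that fell was 6. Of the ligands, Wnt5a had 289.6 and 217 CPM with TGFb1+BMP4, against 70.3 and 71.7 CPM with the inhibitor (log2 fold change 1.83 ± 0.14, adjusted p = 3.58e-05). Wnt11 had 47.2 and 34.8 CPM with TGFb1+BMP4, against 3.60 and 4.55 CPM with the inhibitor (log2 fold change 3.05 ± 0.20, adjusted p = 1.68e-05), and both are known for signaling without beta-catenin. Wnt4 and Wnt10a fell by 0.44 and 0.86 on the log2 scale. The frizzled receptor genes Fzd1 and Fzd7 rose by 1.55 and 1.95. Lgr4, a receptor for R-spondins, had 104 and 115 CPM with TGFb1+BMP4, against 42.3 and 45.7 CPM with the inhibitor (log2 fold change 1.32 ± 0.11, adjusted p = 4.61e-05). Its relative Lgr6 had 4937 reads with TGFb1+BMP4 and 1 read with the inhibitor, at 402 and 308 CPM with TGFb1+BMP4, against 0 and 0.15 CPM with the inhibitor. Axin2, the common readout of beta-catenin signaling, had 2.45 and 5.55 CPM with TGFb1+BMP4, against 3.30 and 6.596 CPM with the inhibitor and was not called (adjusted p = 0.629); its libraries overlapped. In the Notch list 5 of 16 rose and 4 fell. Beside this count and the Hedgehog count below stand 21.4% higher and 20.1% lower over all genes. The share of Notch genes that fell was near the share over all genes. The ligand gene Jag1 rose, at 964 and 772 CPM with TGFb1+BMP4, against 207.1 and 219 CPM with the inhibitor (log2 fold change 2.03 ± 0.13, adjusted p = 1.65e-05). Its relative Jag2 fell, at 63.8 and 90.5 CPM with TGFb1+BMP4, against 204 and 209.6 CPM with the inhibitor (log2 fold change −1.41 ± 0.14, adjusted p = 0.000126). The Hedgehog readout Gli1 had 20.2 and 49.4 CPM with TGFb1+BMP4, against 26.4 and 38.5 CPM with the inhibitor, with overlapping libraries (adjusted p = 0.989), and 5 of 14 Hedgehog pathway genes were higher and 2 lower, or 1 lower without inhibitor replicate 2.

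Keratins moved in both directions. Of 22 measured, 12 rose and 5 fell at a median of 0.58. Krt14, the basal type I keratin, had 9097 and 7500.5 CPM with TGFb1+BMP4, against 2691 and 2553 CPM with the inhibitor (log2 fold change 1.68 ± 0.16, adjusted p = 0.000109). Its partner Krt5 had 3229 and 3073 CPM with TGFb1+BMP4, against 1742 and 1755 CPM with the inhibitor (log2 fold change 0.87 ± 0.12, adjusted p = 0.000638). Krt13, the keratin of suprabasal esophagus, had 3587 and 2759 CPM with TGFb1+BMP4, against 9331 and 8073 CPM with the inhibitor (log2 fold change −1.44 ± 0.26, adjusted p = 0.003). Its partner Krt4 had 1144 and 311 CPM with TGFb1+BMP4, against 3298 and 2158 CPM with the inhibitor (log2 fold change −2.14 ± 0.54, adjusted p = 0.0135). The Krt4 call rested on particular libraries: its log2 fold change was −3.103 without TGFb1+BMP4 replicate 1, −1.17 without TGFb1+BMP4 replicate 2, and −1.84 without inhibitor replicate 1 (adjusted p = 0.0912). Krt10, a keratin of suprabasal epidermis, had 854 and 1241 CPM with TGFb1+BMP4, against 16.6 and 44.9 CPM with the inhibitor (log2 fold change 5.201 ± 0.40, adjusted p = 3.71e-05), or 4.50 without inhibitor replicate 1 and 5.90 without inhibitor replicate 2. Krt1, its epidermal partner, stayed under 3 CPM in all 4 libraries. Krt15, a basal keratin, fell, at 29.5 and 22.6 CPM with TGFb1+BMP4, against 219.8 and 80.7 CPM with the inhibitor (log2 fold change −2.30 ± 0.40, adjusted p = 0.00221), or −1.60 without inhibitor replicate 1 and −3.01 without inhibitor replicate 2. Krt78 and Krt23 fell by 2.32 and 1.53 on the log2 scale. The simple epithelial keratin Krt20 had 189 and 77.6 CPM with TGFb1+BMP4, against 1.95 and 1.30 CPM with the inhibitor (log2 fold change 5.56 ± 0.35, adjusted p = 1.49e-05), with TGFb1+BMP4 replicate 1 the higher, and its log2 fold change was 4.89 without TGFb1+BMP4 replicate 1 and 6.22 without TGFb1+BMP4 replicate 2. Krt6a, a keratin of wounded epithelium, had 6143 and 5901 CPM with TGFb1+BMP4, against 4029 and 4119 CPM with the inhibitor (log2 fold change 0.58 ± 0.15, adjusted p = 0.0136). Krt16, another, had 4483 and 4158 CPM with TGFb1+BMP4, against 2831 and 3224 CPM with the inhibitor (log2 fold change 0.54 ± 0.15, adjusted p = 0.0228). Both of those calls were lost with 1 library left out. The log2 fold change of Krt6a was then 0.53 without TGFb1+BMP4 replicate 1 (adjusted p = 0.0663), 0.56 without inhibitor replicate 1 (adjusted p = 0.123), and 0.61 without inhibitor replicate 2 (adjusted p = 0.0962). That of Krt16 was 0.45 without TGFb1+BMP4 replicate 1 (adjusted p = 0.109), 0.43 without inhibitor replicate 1 (adjusted p = 0.193), and 0.64 without inhibitor replicate 2 (adjusted p = 0.0705).

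Genes of the cornified envelope, the protein shell of dying keratinocytes, fell in 28 of 47 cases and rose in 4, at a median of −1.04; the number lower was 18 without inhibitor replicate 2. Sprr2i had 26.5 and 21.9 CPM with TGFb1+BMP4, against 575 and 647 CPM with the inhibitor (log2 fold change −4.58 ± 0.13, adjusted p = 4.15e-07), but reads of the near-identical Sprr2 genes, and likewise of the Lce genes, may be split among copies. Lor, which encodes loricrin, had 107 and 221 CPM with TGFb1+BMP4, against 1066 and 1115 CPM with the inhibitor (log2 fold change −2.79 ± 0.51, adjusted p = 0.00315). Tgm1, the transglutaminase that cross-links the envelope, had 311 and 298 CPM with TGFb1+BMP4, against 811 and 851 CPM with the inhibitor (log2 fold change −1.43 ± 0.09, adjusted p = 1.51e-05). Crnn, which encodes cornulin, an envelope protein of esophagus, had 1.60 and 1.45 CPM with TGFb1+BMP4, against 5.75 and 7.64 CPM with the inhibitor (log2 fold change −1.58 ± 0.30, adjusted p = 0.00338). The 4 that rose were Ivl, Sprr1a, Tgm5 and Tgm7. Ivl, which encodes involucrin, had 18.8 and 18.7 CPM with TGFb1+BMP4, against 0.999 and 1.05 CPM with the inhibitor (log2 fold change 3.29 ± 0.26, adjusted p = 4.2e-05). Tgm7 had 78.1 and 134 CPM with TGFb1+BMP4, against 5.65 and 18.2 CPM with the inhibitor (log2 fold change 3.21 ± 0.48, adjusted p = 0.00109), or 2.43 without inhibitor replicate 1 and 3.98 without inhibitor replicate 2. Sprr1a had 2265 and 2220.1 CPM with TGFb1+BMP4, against 1519 and 1408 CPM with the inhibitor, with a call lost at 0.59 without TGFb1+BMP4 replicate 1 (adjusted p = 0.0681), 0.68 without inhibitor replicate 1 (adjusted p = 0.0704), and 0.59 without inhibitor replicate 2 (adjusted p = 0.102). Kallikreins and clade B serpins, proteases and inhibitors of the shedding surface, fell in 11 of 22 cases and rose in 4. Serpinb12 had 0.15 and 3.50 CPM with TGFb1+BMP4, against 451 and 594 CPM with the inhibitor (log2 fold change −7.81 ± 0.52, adjusted p = 1.83e-05), the largest fall of the comparison on the log2 scale; it was −6.85 without TGFb1+BMP4 replicate 1 and −8.77 without TGFb1+BMP4 replicate 2. The kallikrein gene Klk11 had 42.4 and 50.5 CPM with TGFb1+BMP4, against 144 and 131 CPM with the inhibitor (log2 fold change −1.53 ± 0.13, adjusted p = 5.27e-05). Serpinb8 moved the other way, at 188 and 167 CPM with TGFb1+BMP4, against 69.7 and 70.5 CPM with the inhibitor (log2 fold change 1.35 ± 0.13, adjusted p = 9.5e-05).

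A list of epidermal lipid barrier genes, drawn up after values were seen, had 20 of 25 members lower, 1 higher and a median of −1.46. The list includes genes that make and export the ceramides that seal stratified epithelium, and also genes with other roles, such as Blmh and Asah1. Abca12, the lipid transporter of lamellar granules, had 228 and 298 CPM with TGFb1+BMP4, against 1525 and 1575 CPM with the inhibitor (log2 fold change −2.55 ± 0.12, adjusted p = 3.79e-06). Ugcg, which makes glucosylceramide, had 90.1 and 107 CPM with TGFb1+BMP4, against 479 and 415 CPM with the inhibitor (log2 fold change −2.15 ± 0.17, adjusted p = 3.76e-05). Cers3, the ceramide synthase for very long acyl chains, had 181 and 194 CPM with TGFb1+BMP4, against 512 and 575 CPM with the inhibitor (log2 fold change −1.51 ± 0.10, adjusted p = 1.84e-05). The groups did not overlap for any of the 3, as for 72.7% of all genes tested. Blmh, a protease that breaks down filaggrin to amino acids, had 57.6 and 77.3 CPM with TGFb1+BMP4, against 527 and 545 CPM with the inhibitor (log2 fold change −2.97 ± 0.12, adjusted p = 2.85e-06). Asah1, an acid ceramidase, was the single member called higher, at 78.5 and 91.8 CPM with TGFb1+BMP4, against 67.5 and 70.6 CPM with the inhibitor (log2 fold change 0.32 ± 0.11, adjusted p = 0.0431), a call lost at 0.23 without TGFb1+BMP4 replicate 2 (adjusted p = 0.195), 0.27 without inhibitor replicate 1 (adjusted p = 0.195), and 0.36 without inhibitor replicate 2 (adjusted p = 0.102).

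**Figure D4:**
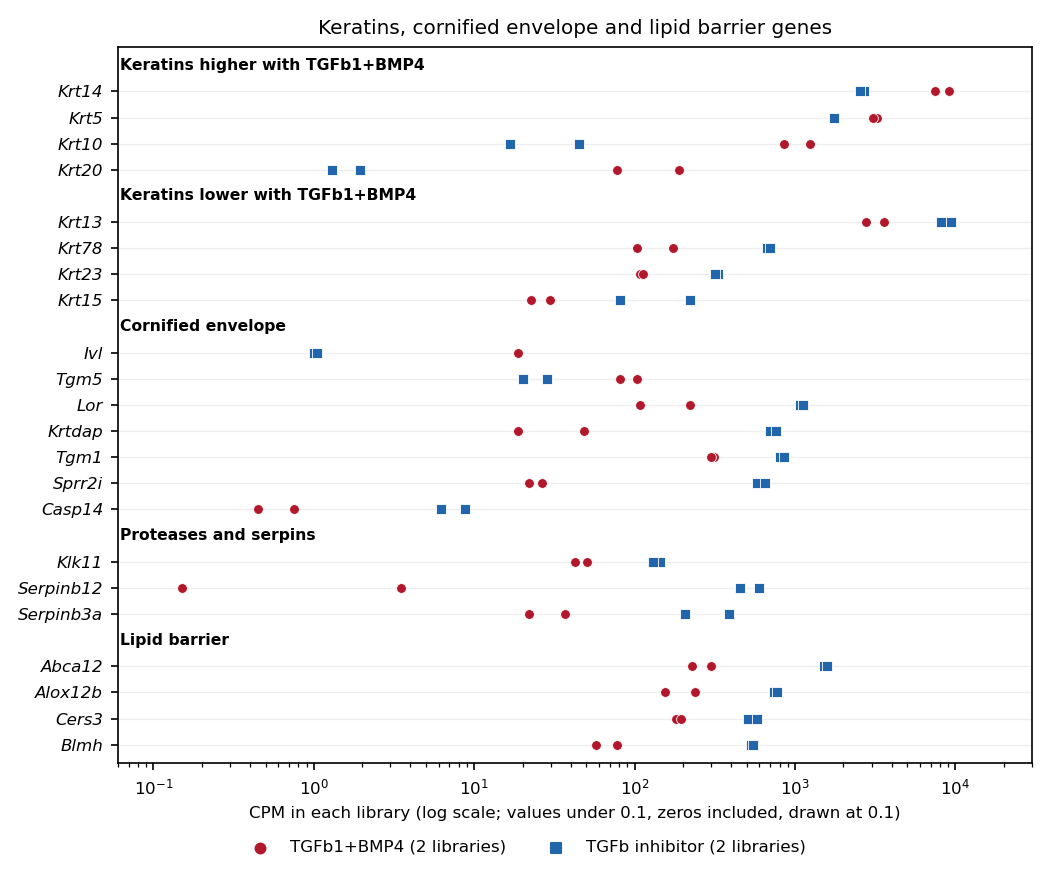
CPM in each library (log axis) for 22 keratin, cornified envelope, protease, serpin and lipid barrier genes, with a red circle for each TGFb1+BMP4 library and a blue square for each TGFb inhibitor library. Krt10 and Krt14 lie higher with TGFb1+BMP4, and Krt13, Abca12 and Lor lie lower.

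Junction genes also moved both ways. Of 29 desmosome and tight junction genes, 13 rose and 5 fell, at a median of 0.39, and the number higher was 5 without TGFb1+BMP4 replicate 1, 6 without inhibitor replicate 1 and 6 without inhibitor replicate 2. The median was 0.20 without TGFb1+BMP4 replicate 1. Dsp, which encodes desmoplakin and had one of the largest gains in CPM, had 10621 and 10304 CPM with TGFb1+BMP4, against 7299 and 7467 CPM with the inhibitor (log2 fold change 0.52 ± 0.18, adjusted p = 0.0439), a call lost at 0.47 without TGFb1+BMP4 replicate 1 (adjusted p = 0.152), 0.57 without TGFb1+BMP4 replicate 2 (adjusted p = 0.0809), 0.50 without inhibitor replicate 1 (adjusted p = 0.238), and 0.55 without inhibitor replicate 2 (adjusted p = 0.194). Dsc1, a desmocollin of upper layers, had 14.04 and 40.0 CPM with TGFb1+BMP4, against 269 and 314 CPM with the inhibitor (log2 fold change −3.53 ± 0.45, adjusted p = 0.000459), which was −2.84 without TGFb1+BMP4 replicate 1 and −4.23 without TGFb1+BMP4 replicate 2. The claudin gene Cldn1 had 501 and 452 CPM with TGFb1+BMP4, against 179 and 171 CPM with the inhibitor (log2 fold change 1.46 ± 0.09, adjusted p = 1.51e-05). Cldn8 had 17.9 and 14.5 CPM with TGFb1+BMP4, against 127 and 97.0 CPM with the inhibitor (log2 fold change −2.69 ± 0.20, adjusted p = 3.09e-05). Squamous lineage factors fell in 10 of 18 cases and rose in 3, at a median of −0.52. Trp63, which encodes the p63 regulator of stratified epithelium, had 399 and 459 CPM with TGFb1+BMP4, against 620.3 and 678 CPM with the inhibitor (log2 fold change −0.58 ± 0.11, adjusted p = 0.00313). Sox2, its esophageal partner, had 66.2 and 75.01 CPM with TGFb1+BMP4, against 120.2 and 130.3 CPM with the inhibitor (log2 fold change −0.80 ± 0.11, adjusted p = 0.000744). Barx2, a homeobox factor, had 4.30 and 3.95 CPM with TGFb1+BMP4, against 36.4 and 26.3 CPM with the inhibitor (log2 fold change −2.62 ± 0.21, adjusted p = 4.41e-05). Of 44 listed columnar lineage factors and mucins only 23 were measured, since 21, among them Cdx2, Muc2 and Tff3, did not reach the filter. The mucin gene Muc16 had 51.02 and 40.7 CPM with TGFb1+BMP4, against 2.20 and 1.30 CPM with the inhibitor (log2 fold change 4.11 ± 0.20, adjusted p = 4.07e-06). Of the 23 measured, 12 were higher and 2, Spdef and Klf5, were lower, at a median of 1.26. Klf5 was the most abundant gene of the list. The median was 0.92 without inhibitor replicate 2.

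The genes that build ribosomes fell together. All 36 measured ribosome biogenesis genes were lower with TGFb1+BMP4, at a median of −1.09. Ncl, which encodes nucleolin, had 255 and 284 CPM with TGFb1+BMP4, against 681 and 640.3 CPM with the inhibitor (log2 fold change −1.27 ± 0.10, adjusted p = 3.85e-05). Npm1, the nucleolar chaperone, had 185 and 204 CPM with TGFb1+BMP4, against 542 and 485 CPM with the inhibitor (log2 fold change −1.38 ± 0.10, adjusted p = 2.24e-05). Polr1a, the large subunit of RNA polymerase I, had 37.98 and 43.2 CPM with TGFb1+BMP4, against 94.7 and 96.4 CPM with the inhibitor (log2 fold change −1.198 ± 0.10, adjusted p = 6.71e-05). Of 80 cytosolic ribosomal protein genes 78 were lower and 0 higher at a median of −0.95, and of 78 mitochondrial ribosomal protein genes 29 were lower and 2 higher at a median of −0.35. Translation factors fell in 35 of 66 cases and rose in 5. These 3 families were drawn up after values were seen. Myc, a known activator of ribosome genes, had 89.6 and 87.2 CPM with TGFb1+BMP4, against 237 and 216 CPM with the inhibitor (log2 fold change −1.33 ± 0.09, adjusted p = 2.32e-05).

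Of the metabolic lists, amino acid supply had the lowest median. The ATF4 and amino acid supply genes fell in 26 of 27 cases and rose in none, at a median of −1.95. Trib3, a pseudokinase induced by stress, had 18.5 and 23.9 CPM with TGFb1+BMP4, against 208 and 217 CPM with the inhibitor (log2 fold change −3.25 ± 0.23, adjusted p = 2.27e-05). Phgdh, which starts serine synthesis, had 20.2 and 20.3 CPM with TGFb1+BMP4, against 130.1 and 116 CPM with the inhibitor (log2 fold change −2.52 ± 0.16, adjusted p = 1.24e-05). Aldh1l2, a mitochondrial folate enzyme, had 33.1 and 44.3 CPM with TGFb1+BMP4, against 439 and 378 CPM with the inhibitor (log2 fold change −3.36 ± 0.13, adjusted p = 2.03e-06). Transporter genes stood beside them. Slc7a5, a chain of the large neutral amino acid transporter, had 79.8 and 76.01 CPM with TGFb1+BMP4, against 380.1 and 465 CPM with the inhibitor (log2 fold change −2.40 ± 0.13, adjusted p = 6.99e-06). Its partner Slc3a2 fell by 1.95 on the log2 scale. Aminoacyl-tRNA synthetase genes fell in 25 of 36 cases and rose in none, at a median of −0.80. Eprs, the synthetase for glutamate and proline, had 167 and 181 CPM with TGFb1+BMP4, against 512 and 507 CPM with the inhibitor (log2 fold change −1.53 ± 0.09, adjusted p = 1.28e-05), while Qars, for glutamine, was not called (adjusted p = 0.476).

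Glycolysis and hypoxia genes fell in 23 of 32 cases and rose in 1, at a median of −0.65. Hk2, an inducible hexokinase, had 72.1 and 86.8 CPM with TGFb1+BMP4, against 185 and 265 CPM with the inhibitor (log2 fold change −1.45 ± 0.16, adjusted p = 0.000252). Car12, a carbonic anhydrase, had 127 and 141 CPM with TGFb1+BMP4, against 291 and 262 CPM with the inhibitor (log2 fold change −1.02 ± 0.09, adjusted p = 7.88e-05). Pfkm, the muscle form of phosphofructokinase, was the gene that rose, at 21.9 and 21.6 CPM with TGFb1+BMP4, against 12.3 and 12.7 CPM with the inhibitor (log2 fold change 0.77 ± 0.15, adjusted p = 0.00353). In the sterol and fatty acid list 14 of 32 fell and 5 rose, or 3 rose without inhibitor replicate 2. The desaturase gene Scd2 had 1125 and 1096 CPM with TGFb1+BMP4, against 750.2 and 684 CPM with the inhibitor (log2 fold change 0.65 ± 0.12, adjusted p = 0.00348).

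Cell cycle genes were lower in part. Of 40 mitosis genes 33 were lower and none higher, at a median of −1.29, and of 43 replication genes 16 were lower and 2 higher, at a median of −0.45. The mitosis count was 16 without TGFb1+BMP4 replicate 1, 8 without inhibitor replicate 1 and 16 without inhibitor replicate 2, and the replication count was 10, 8 and 12 in the same order, while the number of replication genes higher was 1 without any 1 of the 4 libraries. The mitosis median was −0.85 without TGFb1+BMP4 replicate 1. Ccnb1, a mitotic cyclin, had 1.60 and 3.50 CPM with TGFb1+BMP4, against 15.1 and 14.9 CPM with the inhibitor (log2 fold change −2.20 ± 0.34, adjusted p = 0.00125). Mki67, the proliferation marker, had 11.04 and 46.6 CPM with TGFb1+BMP4, against 110.4 and 109.8 CPM with the inhibitor (log2 fold change −2.19 ± 0.49, adjusted p = 0.00787), with replicate 2 the higher of the TGFb1+BMP4 libraries; the log2 fold change was −1.23 without TGFb1+BMP4 replicate 1 and −3.16 without TGFb1+BMP4 replicate 2. Pold2, a subunit of DNA polymerase delta, had 6.45 and 7.25 CPM with TGFb1+BMP4, against 22.99 and 24.4 CPM with the inhibitor (log2 fold change −1.64 ± 0.17, adjusted p = 0.000146), and Rrm2, the small subunit of ribonucleotide reductase, rose, at 22.2 and 26.4 CPM with TGFb1+BMP4, against 11.1 and 8.70 CPM with the inhibitor (log2 fold change 1.24 ± 0.15, adjusted p = 0.000426). Histone genes of the Hist clusters, a family drawn up after values were seen, fell in 42 of 58 cases and rose in 0. Their median was −1.07, with a range of −2.43 to 0.42. Ccnd2, a G1 cyclin, had 171 and 201 CPM with TGFb1+BMP4, against 471 and 422 CPM with the inhibitor (log2 fold change −1.24 ± 0.10, adjusted p = 3.82e-05). Ccnd3, another G1 cyclin, had 59.2 and 54.3 CPM with TGFb1+BMP4, against 30.1 and 31.7 CPM with the inhibitor (log2 fold change 0.87 ± 0.11, adjusted p = 0.000484).

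**Figure D5:**
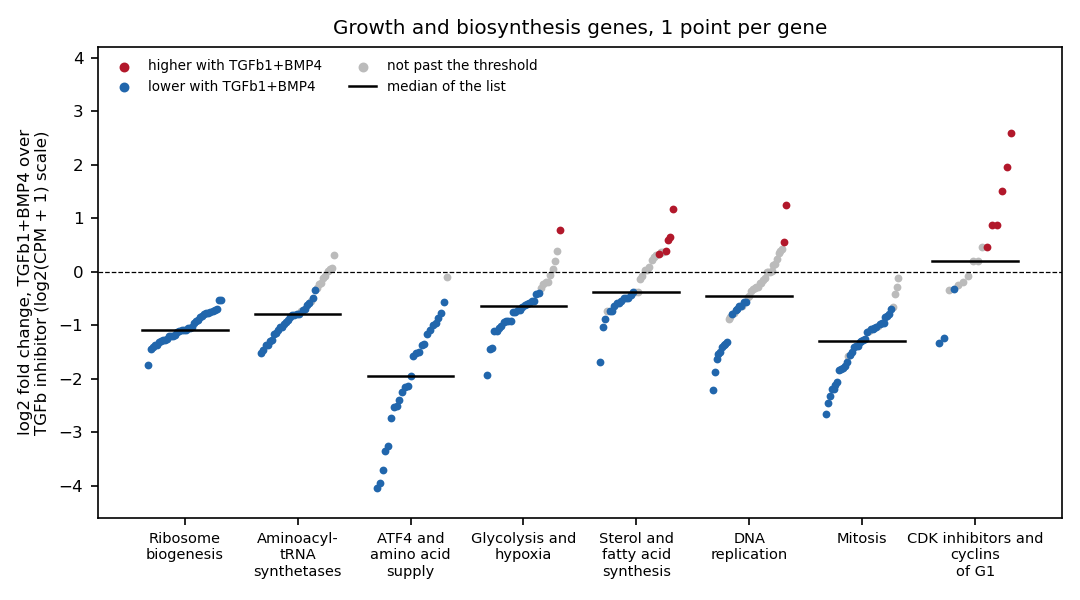
Log2 fold change of TGFb1+BMP4 over TGFb inhibitor for each measured gene of 8 growth and biosynthesis lists, with a point per gene in order of its value, called genes in red (higher) or blue (lower) and a line at each list's median. Every ribosome biogenesis gene lies below 0 and was called lower.

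Growth factor genes changed by family. EGF family genes fell in 6 of 14 cases and rose in 2, with none higher when TGFb1+BMP4 replicate 1 or inhibitor replicate 1 was left out and 1 without inhibitor replicate 2. Nrg1, a ligand of ERBB receptors, had 21.6 and 23.6 CPM with TGFb1+BMP4, against 178 and 251 CPM with the inhibitor (log2 fold change −3.15 ± 0.20, adjusted p = 1.54e-05). Tgfa, a ligand of the EGF receptor, had 112 and 107 CPM with TGFb1+BMP4, against 165 and 169 CPM with the inhibitor (log2 fold change −0.58 ± 0.09, adjusted p = 0.00134). In the insulin-like growth factor list the binding protein gene Igfbp3 had 331 and 216 CPM with TGFb1+BMP4, against 6.596 and 7.79 CPM with the inhibitor (log2 fold change 5.05 ± 0.20, adjusted p = 2.06e-06). Pappa, a protease that cleaves such binding proteins, had 19.3 and 26.4 CPM with TGFb1+BMP4, against 222 and 279.6 CPM with the inhibitor (log2 fold change −3.38 ± 0.17, adjusted p = 4.94e-06). These 2 genes moved in opposite directions by more than 8-fold each. Of the FGF, PDGF and VEGF genes 9 of 21 rose and 3 fell. Fgf2 had 97.3 and 129 CPM with TGFb1+BMP4, against 9.74 and 7.64 CPM with the inhibitor (log2 fold change 3.57 ± 0.16, adjusted p = 3.61e-06). Pdgfrb, the PDGF receptor of pericytes and fibroblasts, had 46.3 and 69.4 CPM with TGFb1+BMP4, against 4.95 and 5.996 CPM with the inhibitor (log2 fold change 3.18 ± 0.19, adjusted p = 1.13e-05). Vegfa, the endothelial growth factor, had 165 and 195 CPM with TGFb1+BMP4, against 285 and 292 CPM with the inhibitor (log2 fold change −0.66 ± 0.10, adjusted p = 0.00105), and its relative Vegfc rose, at 18.8 and 8.29 CPM with TGFb1+BMP4, against 0.45 and 0.15 CPM with the inhibitor (log2 fold change 3.39 ± 0.37, adjusted p = 0.000207).

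Of 15 chemokine genes 8 rose and 1 fell, or 2 fell without inhibitor replicate 1. The neutrophil chemokine gene Ppbp had 606 and 247 CPM with TGFb1+BMP4, against 6.05 and 2.10 CPM with the inhibitor (log2 fold change 6.39 ± 0.51, adjusted p = 4.26e-05), and its log2 fold change was 5.72 without TGFb1+BMP4 replicate 1 and 7.06 without TGFb1+BMP4 replicate 2. Cxcl3, of the same kind, had 57.5 and 36.8 CPM with TGFb1+BMP4, against 2.10 and 2.10 CPM with the inhibitor (log2 fold change 3.93 ± 0.26, adjusted p = 1.83e-05). Ccl20, the ligand of CCR6, had 0 and 0 CPM with TGFb1+BMP4, against 24.9 and 90.1 CPM with the inhibitor. Its level was at least 270.5-fold lower, and its log2 fold change of −5.57, which rests on the pseudocount, was −6.47 without inhibitor replicate 1 and −4.65 without inhibitor replicate 2. Among 35 interleukin and receptor genes 8 rose and 10 fell, not far from the 21.4% and 20.1% over all genes, and the number higher was 5 without TGFb1+BMP4 replicate 1, 4 without inhibitor replicate 1 and 5 without inhibitor replicate 2. Tslp, an epithelial cytokine, had 0.3 and 0.45 CPM with TGFb1+BMP4, against 11.8 and 29.4 CPM with the inhibitor (log2 fold change −3.81 ± 0.40, adjusted p = 0.000169). Il33, an epithelial alarmin, had 83.1 and 87.9 CPM with TGFb1+BMP4, against 27.6 and 38.9 CPM with the inhibitor (log2 fold change 1.37 ± 0.19, adjusted p = 0.000766). Il1rn, the antagonist of interleukin 1, had 138 and 121 CPM with TGFb1+BMP4, against 443 and 620.0 CPM with the inhibitor (log2 fold change −1.99 ± 0.27, adjusted p = 0.000715). Il4ra, the receptor chain for interleukins 4 and 13, had 194 and 186 CPM with TGFb1+BMP4, against 43.2 and 60.9 CPM with the inhibitor (log2 fold change 1.89 ± 0.15, adjusted p = 4.43e-05). For Ccl20 and Tslp the inhibitor libraries themselves differed by more than 2-fold, with replicate 2 higher, and the Tslp value was −4.44 without inhibitor replicate 1 and −3.18 without inhibitor replicate 2.

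Antimicrobial and alarmin genes counted 13 higher and 14 lower of 33. S100a8, a chain of calprotectin, had 237 and 243 CPM with TGFb1+BMP4, against 806 and 835 CPM with the inhibitor (log2 fold change −1.75 ± 0.21, adjusted p = 0.000386). S100a9, the other chain, had 116 and 141 CPM with TGFb1+BMP4, against 914 and 979 CPM with the inhibitor (log2 fold change −2.86 ± 0.22, adjusted p = 4.03e-05). Chil1, a chitinase-like protein, had 0.45 and 0.75 CPM with TGFb1+BMP4, against 71.6 and 155 CPM with the inhibitor (log2 fold change −6.03 ± 0.35, adjusted p = 9.46e-06). Ltf, which encodes lactoferrin, rose, at 461 and 196 CPM with TGFb1+BMP4, against 38.7 and 13.8 CPM with the inhibitor (log2 fold change 3.65 ± 0.47, adjusted p = 0.00053); its log2 fold change was 3.01 without TGFb1+BMP4 replicate 1, 4.29 without TGFb1+BMP4 replicate 2, 4.35 without inhibitor replicate 1, and 2.95 without inhibitor replicate 2. In the complement and antigen presentation list 5 of 22 rose and 8 fell, and the share that rose was near the 21.4% over all genes. The number higher was 3 without inhibitor replicate 1, and the number lower was 4 without TGFb1+BMP4 replicate 1 and 3 without inhibitor replicate 2. H2-Ab1, a class II chain, had 70.9 and 55.2 CPM with TGFb1+BMP4, against 11.1 and 9.59 CPM with the inhibitor (log2 fold change 2.51 ± 0.15, adjusted p = 1.24e-05).

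Retinoid metabolism genes, a list drawn up after values were seen, rose in 8 of 21 cases and fell in 5; the number higher was 4 without inhibitor replicate 2. Aldh1a3, which makes retinoic acid, had 865 and 509 CPM with TGFb1+BMP4, against 52.3 and 27.6 CPM with the inhibitor (log2 fold change 4.11 ± 0.31, adjusted p = 3.35e-05). Its relative Aldh1a1 had 26.9 and 14.9 CPM with TGFb1+BMP4, against 1.80 and 1.05 CPM with the inhibitor (log2 fold change 3.15 ± 0.28, adjusted p = 7.96e-05). Cyp1b1, an oxidase of retinoids and other lipids, had 165 and 180.4 CPM with TGFb1+BMP4, against 17.4 and 11.4 CPM with the inhibitor (log2 fold change 3.54 ± 0.16, adjusted p = 3.76e-06). Rbp2, a retinol binding protein, had 23.4 and 50.1 CPM with TGFb1+BMP4, against 169.9 and 197 CPM with the inhibitor (log2 fold change −2.36 ± 0.50, adjusted p = 0.00618). Fabp5, a fatty acid binding protein of keratinocytes that also binds retinoic acid, had 369 and 429 CPM with TGFb1+BMP4, against 1353 and 1276 CPM with the inhibitor (log2 fold change −1.70 ± 0.21, adjusted p = 0.000374). Both Aldh1a genes were thus higher and both of these binding protein genes lower.

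Several of the largest rises belonged to genes with little or no RNA in the inhibitor libraries. Odam, an enamel-related secreted protein encoded on chromosome 5 like Amtn, had 488 and 194 CPM with TGFb1+BMP4, against 0 and 0 CPM with the inhibitor, thus at least 1714-fold higher. Its log2 fold change of 8.25, which rests on the pseudocount, was 7.56 without TGFb1+BMP4 replicate 1 and 8.93 without TGFb1+BMP4 replicate 2. Stmn2, a microtubule regulator of neurons, had 164 and 161 CPM with TGFb1+BMP4, against 0.55 and 0 CPM with the inhibitor (log2 fold change 7.03 ± 0.20, adjusted p = 4.62e-07). C1qtnf3, which encodes a C1q-related protein, had 163 and 90.8 CPM with TGFb1+BMP4, against 0.3 and 0.3 CPM with the inhibitor (log2 fold change 6.55 ± 0.34, adjusted p = 5.76e-06). Mill1, which encodes an MHC class I-like molecule, had 183 and 98.1 CPM with TGFb1+BMP4, against 0.45 and 0.65 CPM with the inhibitor (log2 fold change 6.44 ± 0.27, adjusted p = 2.88e-06). TGFb1+BMP4 replicate 1 was the higher library for Amtn, Odam, C1qtnf3 and Mill1. Among the largest falls, the receptor phosphatase gene Ptprz1 had 1.60 and 3.80 CPM with TGFb1+BMP4, against 141 and 156 CPM with the inhibitor (log2 fold change −5.38 ± 0.26, adjusted p = 4.19e-06). The log2 fold change was −5.33 for the beta defensin gene Defb3, −5.16 for the adhesion protein gene Tmigd1 and −4.70 for the secreted glycoprotein gene Stc2. Slc4a11, a transporter known from corneal endothelium, had 5.75 and 3.35 CPM with TGFb1+BMP4, against 141 and 134 CPM with the inhibitor (log2 fold change −4.65 ± 0.26, adjusted p = 7.69e-06). Acox2, a peroxisomal oxidase, fell by 4.63 on the log2 scale.

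Markers of further cell types were measured in part. Beside the counts below stand 21.4% higher and 20.1% lower over all genes. Of 18 immune markers 6 reached the filter, with 3 higher and 1 lower, and Ptprc, the leukocyte marker CD45, did not reach it. All 18 summed to 49.3 and 78.8 CPM with TGFb1+BMP4, against 61.5 and 71.1 CPM with the inhibitor. Of 12 endothelial markers 4 reached the filter, with Cdh5, Kdr and Tek not among them, and 1 was higher and 1 lower. All 12 summed to 29.1 and 39.4 CPM with TGFb1+BMP4, against 20.1 and 14.99 CPM with the inhibitor. Of 9 Schwann and glial markers 4 reached the filter. Of these 2 were higher, but none without inhibitor replicate 1 and 1 without any other of the 4 libraries. Of 10 melanocyte and Merkel cell markers 3 reached the filter, all called higher, though not in every fit with 1 library left out. Muscle markers were more abundant: all 13 summed to 1304 and 1687 CPM with TGFb1+BMP4, against 679 and 765 CPM with the inhibitor. Of the 13, 10 reached the filter, with 5 higher and none lower. Myod1, the skeletal muscle determination factor, had 20.4 and 17.7 CPM with TGFb1+BMP4, against 3.30 and 3.50 CPM with the inhibitor (log2 fold change 2.20 ± 0.20, adjusted p = 7.52e-05). Mb, which encodes myoglobin, had 48.0 and 60.3 CPM with TGFb1+BMP4, against 9.99 and 15.3 CPM with the inhibitor (log2 fold change 2.05 ± 0.24, adjusted p = 0.000305). The part of such cells in the results above was not tested.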

How the data were processed

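Bulk RNA-seq of organoids was deposited as 1 table of 52636 genes. Per the submitters' processing notes the build was GRCm38/mm10 and the tools included STAR 2.5.3a, HTSeq and edgeR, and whether counting used strand is not given in the sources used here. The deposited values are a scaled read signal that the authors brought to nearly the same total in each library and rounded, CPM, log2 fold changes and 1 p-value and adjusted p-value per gene whose comparison is not named. The authors' log2 and p-value columns were not used for any result. CPM was divided by TMM factors (trims of 30% and 5%) and log2(CPM + 1) was fitted with limma 3.58.1 in R 4.3.3 over all 6 libraries, with 1 term per group, trended empirical Bayes and 2-sided tests, so the 3 groups share 1 estimate of the spread. Fold changes are on the log2(CPM + 1) scale, which understates changes of low genes; per-library values are CPM as deposited. Benjamini-Hochberg adjustment covered all 17761 genes at a CPM of 1 or more in 2 of the 4 libraries, and 0.05 was the threshold for a call. Reads were recovered by undoing each library's scaling, and at least 99.9879% of values per library lay within 0.25 of a whole read. Floors of 3 reads and 95% intervals cover counting error only. Symbols and biotypes came from the deposited table and GENCODE vM21, and promoters from RefSeq. The fit was tested on simulated data with far fewer changed genes and the same added noise for every gene, a setting unlike these data. The comparison, its gene lists and its named genes were chosen with earlier results of these data known. Genes were named by largest change in CPM or fold and by list, with further members chosen after their values were seen. Alternatives covered scaling, pseudocount, filter, libraries in the fit, replicate number and each library left out. Reads of near-identical or overlapping genes may have been split or lost in counting.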

Additional observations from a re-analysis of the deposited data

How the results depend on the processing

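The called genes, 7363, numbered 7364 without TMM factors, 7329 with RLE factors, 7305 and 7113 with pseudocounts of 0.5 and 0.1, 6233 with no filter, 6249 with a CPM filter of 5, 7332 with the filter over all 6 libraries, 7266 with only the 4 compared libraries fitted and 7333 with limma-voom on the recovered reads, an alternative added after seeing the data. With 1 library left out the count ranged between 4788, without inhibitor replicate 1, and 7295. It was 4849 without inhibitor replicate 2. The share of called genes that were higher, 51.58% (95% binomial interval 50.4% to 52.7%), was 49.96% without TMM factors and ranged between 50.90% and 53.70% with 1 library left out. Called genes that reached 2-fold, 3067, numbered 3494 and 3580 with pseudocounts of 0.5 and 0.1 and 3657 with limma-voom. In a fit with the replicate number as a block, 7936 genes were called. That fit changed no call of a named gene or direction of a list. The numbers name replicates in the labels without stating a shared batch. Same-numbered libraries deviated together at a correlation of 0.194 between TGFb1+BMP4 and inhibitor, 0.258 between TGFb1+BMP4 and the ibuprofen group and 0.176 between inhibitor and the ibuprofen group. With 2 numbers only, the samples were taken to share a number and nothing else.

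Of the 228 named genes under 16 alternatives, those whose sign turned had not passed the test. Without TMM factors Smad4 was at -0.0076 and Gli1 at -0.0097 on the log2 scale, and with a CPM filter of 5 Cdh1 was at 0.0050. With 1 library left out, values ranged between -0.6909 and 0.1884 for Axin2, -0.2389 and 0.2135 for Cdh1, -0.5876 and 0.6056 for Gli1, -0.1314 and 0.1553 for Smad4, -0.0541 and 0.0165 for Smad5, and -0.0435 and 0.4779 for Tgfbr2. The cause of these turns was not tested. Tests of counts with edgeR or DESeq2 were planned and not run. The deposited values are scaled and rounded, and not every recovered value lay within 0.25 of a whole read. Of genes averaging under 2 CPM, 24.5% were called, at a median SE of 0.27 on the log2(CPM + 1) scale, which understates their changes.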

Other observations

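Classes of RNA other than messenger RNA were called in different shares, against 21.4% higher and 20.1% lower over all genes tested. The small nucleolar RNA, processed pseudogene and mitochondrially encoded classes were chosen after values were seen. Of 209 small nucleolar RNA genes 1 (0.479%) was higher and 41 (19.6%) lower with TGFb1+BMP4, at a median log2 fold change of −0.43, so the share lower was near that over all genes and the share higher below it. Of 567 processed pseudogenes 18 (3.17%) were higher and 99 (17.5%) lower, at a median of −0.25, and reads of such copies cannot always be told apart from those of their parent genes. Of 443 long intergenic noncoding RNA genes 92 (20.8%) were higher and 70 (15.8%) lower, at or under the shares over all genes. Among 34 mitochondrially encoded genes 1 was higher and 0 lower; these genes together took 2.21% and 2.43% of CPM with TGFb1+BMP4, against 2.63% and 2.67% with the inhibitor.

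Called genes with the same direction stood next to each other in 29 runs of at least 6 neighbouring measured protein-coding genes. Genes of other biotypes that lie between them were left out. Of all protein-coding genes tested, 24.18% were higher and 22.45% lower. The number of such runs for calls placed at random was not worked out. On chromosome 13 the longest run of Hist1 histone genes held 16 lower genes, at a median of −1.27. On chromosome 3 a run of 8 Lce1 genes was lower at a median of −2.26 and a run of 7 Sprr2 genes at −2.54, whereas a nearby run of 6 genes that held S100a2, S100a4 and S100a6 was higher at a median of 1.33. A run of 7 higher genes, also on chromosome 3, held the chloride channel regulator genes Clca3a1, Clca3a2, Clca3b and Clca4a. On chromosome 7 a run of 6 higher genes held Fxyd1, Fxyd3 and Fxyd5, which encode regulators of the sodium pump. On chromosome 1 a run of 6 higher genes held Tnni1 and Tnnt2, which encode troponins, at a median of 1.07. A run of 12 higher genes on chromosome 2 held Tgm5 and Tgm7 at a median of 0.73. The 9 Ugt1a genes and the 22 gamma protocadherin genes, each of which share exons among models, were lower throughout, at medians of −1.59 and −0.51, and so were 9 models at the start of chromosome 9, at a median of −2.22. These groups were chosen after values were seen.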
